A study of Mus musculus with 10 samples.

Results

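Platelets are cell fragments without a nucleus that megakaryocytes shed into the blood, and the RNA they carry was made in the megakaryocyte. They bind exposed collagen and von Willebrand factor, release the contents of their granules, produce thromboxane and aggregate through the fibrinogen receptor, the integrin αIIbβ3. The genes described here, 36 in number, encode receptors, granule proteins, enzymes and structural proteins of these steps, together with a transcription factor and other listed genes. The list was drawn up from known roles, not by a cutoff on the measured values, but with earlier results of these data known. Shares of the list set against all genes are therefore descriptions and not independent tests. Of the 36 genes, 35 had a row among the 28185 genes of the expression table, and Gp1bb, the β chain of the GPIb receptor, was not analysed here. A mean of at least 10 normalized counts over all libraries was needed for testing, which 33 of the 35 genes and 11549 genes in all reached. The thrombin receptor F2rl3 and the thromboxane receptor Tbxa2r fell below it.

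Adult male C57Bl/6J mice underwent ligation of the left coronary artery, and Ly6G+ cells, a fraction enriched in neutrophils, were taken from the infarcted heart or from blood at day 3. The RNA-seq libraries formed 4 groups, all from infarcted mice. The groups were MI (cardiac cells, no stem cells, 3 libraries), MI + MSC (cardiac cells, 3 libraries), Blood (no stem cells, 2 libraries) and Blood + MSC (2 libraries). The MSC groups had received syngeneic bone marrow mesenchymal stromal cells under the skin shortly after ligation. Ly6G+ cells were held on a magnetic bead column, cardiac cells after enzymatic digestion of the ventricle below the ligature, and no step against platelets was given in the sources used here. The study names the single animal as its unit unless otherwise stated and gives 3 mice a group for sequencing, whereas the blood groups hold 2 libraries. The labels did not state which mouse a library came from or which libraries shared a mouse. The p-values therefore measured the spread between libraries, part of which may be technical. Libraries are named by group and library number.

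The deposited values were read counts divided by a size factor for each library, called normalized counts here, and the reads behind them were recovered exactly. Depth ran from 148594 reads on genes in MI 13 to 8602711 in Blood + MSC 24, with 268860 in Blood 21 and 2957308 in Blood 22. One read counted for 8.40 normalized counts in MI 13, for 7.07 in Blood 21 and for 0.168 to 2.30 elsewhere. Ly6g itself stood at 198 and 645 normalized counts in Blood 21 and Blood 22, at 57.0 and 41.2 in Blood + MSC, and at 4.73 to 26.9 in the cardiac libraries. The cardiac libraries also held cardiomyocyte, endothelial and macrophage transcripts, given below beside the genes they moved with.

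The summed level of the 35 genes set 1 library apart. The genes took 3.96% of all reads in Blood 21 (95% exact binomial interval 3.89 to 4.04%, which covers counting error only) and 0.328% in Blood 22. The share was 0.332% and 0.288% in the Blood + MSC libraries, and in the heart 0.165%, 0.275% and 0.293% for MI and 0.434%, 0.394% and 0.359% for MI + MSC. Every library except Blood 21 thus lay below 0.5%, and the remaining blood libraries fell inside the cardiac range. That overlap depended on Plek, Pf4 and Itga6, which other cells in the heart may also supply. Without these genes the summed normalized counts were 2486 in Blood 22, 1702 and 1433 in Blood + MSC and 812 to 1140 in the heart. The blood libraries then all lay above the cardiac ones. Since these are bulk samples, more platelets or megakaryocytes and more platelet RNA per cell cannot be told apart.

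**Figure D1:**
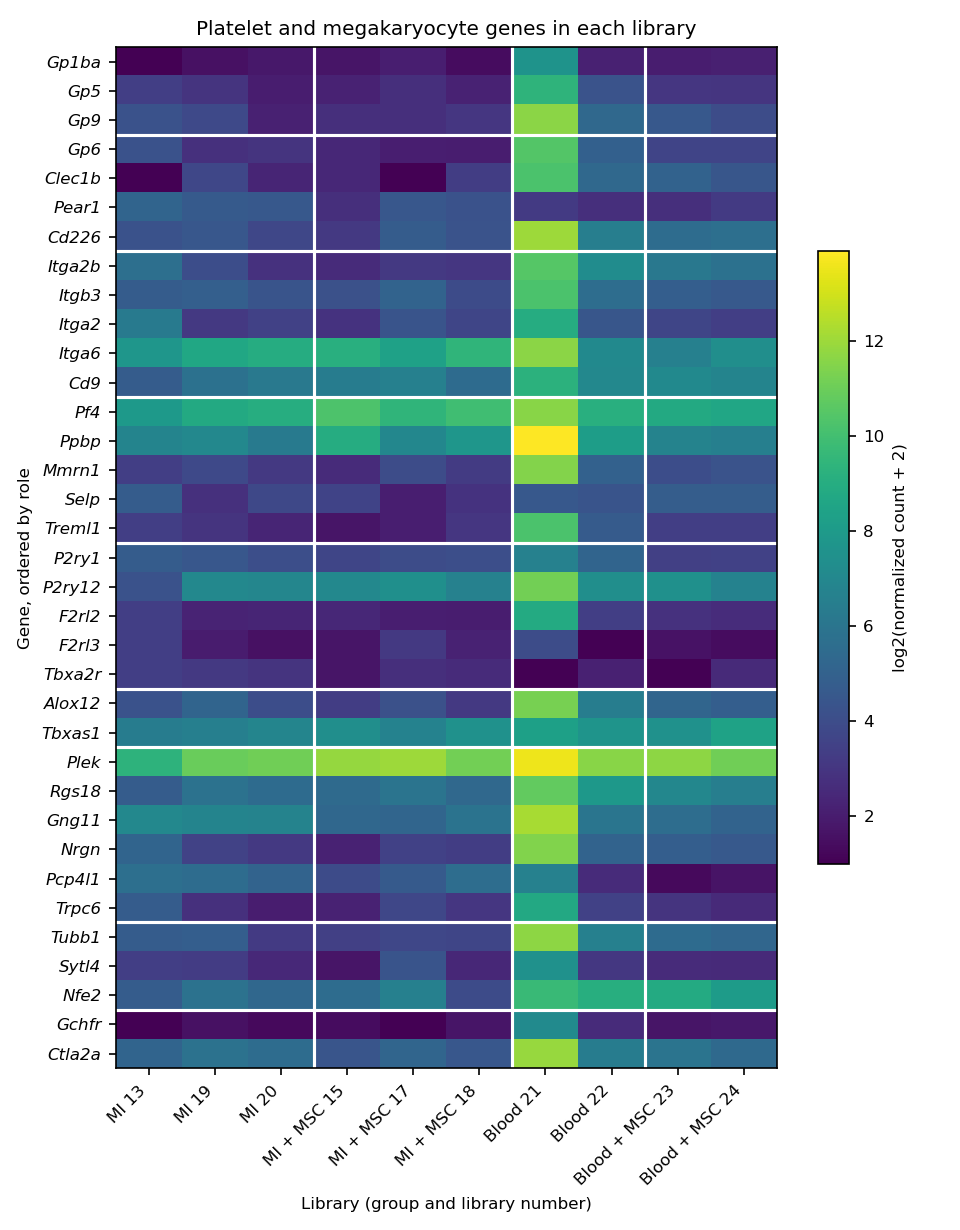
Level of each of the 35 genes in each of the 10 libraries, as log2(normalized count + 2) in colour. Rows are genes grouped by role and columns are libraries, with white lines between roles and groups. Blood 21 was the highest library for 31 of the 35 genes, while Plek, Pf4 and Itga6 were also high in the cardiac libraries.

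The composition of the sum differed as well. Plek, which encodes pleckstrin, a protein kinase C substrate made by platelets and by leukocytes, supplied 31.4% to 67.3% of the sum in the libraries other than Blood 21. In Blood 21 it supplied 15.8%, and the chemokine gene Ppbp supplied 20.01%. On a scale of normalized counts per kilobase of exon, the leading genes of Blood 21 were Ppbp at 11587, Gng11 at 5084, Gp9 at 3604 and Tubb1 at 2312. On the same scale Blood 22 was led by Plek at 543, Pf4 at 224 and Ppbp at 217, and both Blood + MSC libraries by Plek and Pf4. Over the 33 tested genes, Spearman's rho between levels was 0.96 to 0.99 among the 3 blood libraries other than Blood 21. It was 0.60 to 0.66 between Blood 21 and those libraries, and 0.31 to 0.54 between Blood 21 and the cardiac libraries. These correlations are descriptions across genes, which are not independent and share the depth of each library.

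Blood 21 was the highest of all 10 libraries for 31 of the 35 genes. Among the tested genes this held for 30 of 33, against 12.3% of all 11549 genes. The mean that decided testing included Blood 21, so a gene high only there could pass through it. Gp1ba and Gchfr, for example, had 191 and 141 normalized counts in Blood 21 and at most 2.60 and 3.90 elsewhere. Counts and medians over the 33 genes are therefore partly set by the filter. The ratio of Blood 21 to Blood 22 was at least 5 for 26 genes, at least 20 for 22 genes and at least 50 for 8 genes, with a median of 28.5 over the 33 tested genes. Over the 11330 tested genes with a read in Blood 22 the median ratio was 0.806, and 4.25% reached a ratio of 5. Blood 22 in turn was above both Blood + MSC libraries for 26 of the 33 genes, against 38.2% of all tested genes, with a median ratio to their mean of 1.84 over the 33 genes and 1.003 over all tested genes. The 2 ratios came from single libraries and carry no test.

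**Figure D2:**
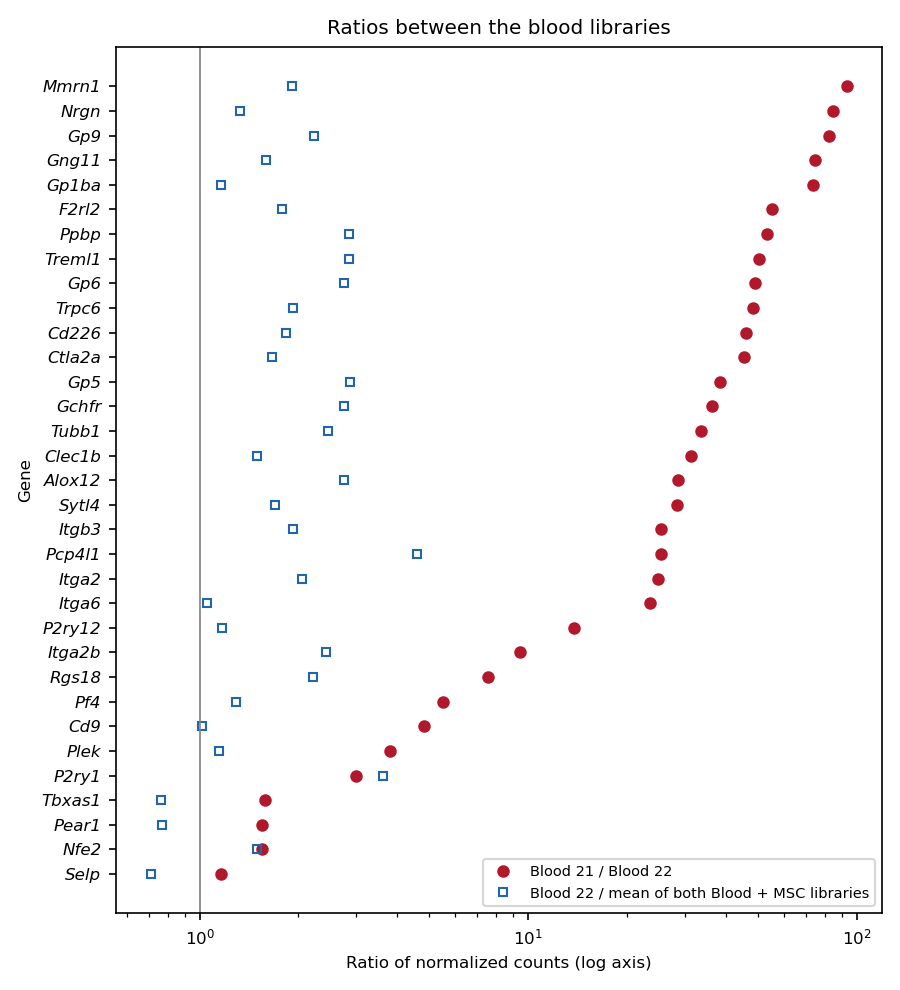
Ratio of normalized counts between blood libraries for the 33 tested genes, on a log axis. Red circles give Blood 21 over Blood 22 and open blue squares give Blood 22 over the mean of the Blood + MSC libraries. The circles run from 1.17 for Selp to 93.5 for Mmrn1, while the squares lie between 0.710 and 4.58.

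The GPIb-IX-V complex is the receptor for von Willebrand factor that first tethers platelets to the injured vessel wall. Gp9, its small anchoring subunit, had 3201 normalized counts in Blood 21, 39.0 in Blood 22, 21.01 and 13.97 in Blood + MSC, and 2.57 to 16.8 in the cardiac libraries. Gp5 had 671 in Blood 21, 17.5 in Blood 22 and 2.06 to 8.40 in the heart. Gp1ba, the subunit that binds von Willebrand factor, had 191 normalized counts in Blood 21, then 2.60 in Blood 22, and the Blood + MSC libraries had 2.10 and 2.36. Behind these values stood 27 reads in Blood 21 and 4 in Blood 22. Each cardiac library held 0 to 3 reads of Gp1ba, so its level in the heart was at or under the floor of 3 reads. The 3 measured subunits were therefore highest in Blood 21 by a wide margin.

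The activating receptors of the platelet surface separated into genes that followed this pattern and 1 that did not. Gp6, the collagen receptor, had 1399 normalized counts in Blood 21, 28.6 in Blood 22, 10.5 and 10.3 in Blood + MSC, and 2.03 to 16.8 in the heart. Clec1b, which encodes the podoplanin receptor CLEC-2, had 1201 and 38.3 in the Blood libraries, against 31.3 and 20.02 with MSC. Cd226, an adhesion receptor of platelets and lymphocytes, had 4027 and 87.7 in Blood, against 45.2 and 50.3 with MSC. T and NK cell markers summed to 28.3 in Blood 21 and 85.1 in Blood 22. Pear1, a platelet contact receptor that endothelial cells also make, did not follow the pattern. It had 7.07 in Blood 21, from 1 read, and 4.55 in Blood 22, against 4.73 and 7.07 with MSC. Its cardiac values were 33.6, 23.1 and 21.6 in MI, against 4.73, 20.7 and 16.9 in MI + MSC.

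Among the granule genes, the chemokines Pf4 and Ppbp lie side by side on chromosome 5, with 548 bases between them (GRCm39, Ppbp at chr5:90916371-90917930 and Pf4 at chr5:90918479-90922110). Ppbp, the precursor of platelet basic protein, had 15063 normalized counts in Blood 21, then 283 in Blood 22, and the Blood + MSC libraries had 108 and 91.4. In the heart it had 109, 127 and 75.1 in MI, against 504, 124 and 215 in MI + MSC. Pf4, platelet factor 4, had 3038 in Blood 21 and 552 in Blood 22, against 457 and 396 with MSC. Its ratio of Blood 21 to Blood 22 was 5.51, against 53.3 for Ppbp, and its cardiac levels reached 1233. Mmrn1, which encodes the factor V carrier multimerin 1, had the highest ratio of the list at 93.5, from 2854 normalized counts in Blood 21 and 30.5 in Blood 22. Treml1, a receptor of the α-granule membrane, had a ratio of 50.6. Selp, the α-granule adhesion molecule P-selectin, was the exception at 21.2 in Blood 21, from 3 reads, and 18.2 in Blood 22, against 25.5 and 25.7 with MSC.

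Transcription of many megakaryocyte genes depends on GATA and ETS factors and on NF-E2. The sequences shown are the promoter windows of 5 genes from RefSeq on build GRCm38.p6. These genes were picked by name among those highest in Blood 21, not by a rule, and need not be typical of them. Each window has 250 bases before and 50 bases after the gene start, read 5′ to 3′ on the strand of the gene. The RefSeq starts need not be those of the gene coordinates given above, and those of Ppbp and Pf4 lie further apart. Capitals mark every AGATAA or TGATAA on either strand. The windows are chr11:70638872-70639171 (plus) for Gp1ba, chr7:4397695-4397994 (minus) for Gp6, chr6:60944067-60944366 (plus) for Mmrn1, chr5:90772185-90772484 (plus) for Pf4 and chr5:90768268-90768567 (plus) for Ppbp.
Gp1ba: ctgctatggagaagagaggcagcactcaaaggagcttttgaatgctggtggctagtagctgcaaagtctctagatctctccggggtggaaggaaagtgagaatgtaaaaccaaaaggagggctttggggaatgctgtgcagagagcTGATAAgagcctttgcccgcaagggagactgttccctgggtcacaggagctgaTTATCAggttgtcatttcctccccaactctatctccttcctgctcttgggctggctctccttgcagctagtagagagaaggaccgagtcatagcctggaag
Gp6: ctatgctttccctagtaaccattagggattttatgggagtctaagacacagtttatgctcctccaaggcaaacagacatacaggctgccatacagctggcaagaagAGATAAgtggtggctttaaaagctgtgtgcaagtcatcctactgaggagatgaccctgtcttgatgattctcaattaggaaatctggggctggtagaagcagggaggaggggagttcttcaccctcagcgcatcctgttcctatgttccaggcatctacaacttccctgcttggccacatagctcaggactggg
Mmrn1: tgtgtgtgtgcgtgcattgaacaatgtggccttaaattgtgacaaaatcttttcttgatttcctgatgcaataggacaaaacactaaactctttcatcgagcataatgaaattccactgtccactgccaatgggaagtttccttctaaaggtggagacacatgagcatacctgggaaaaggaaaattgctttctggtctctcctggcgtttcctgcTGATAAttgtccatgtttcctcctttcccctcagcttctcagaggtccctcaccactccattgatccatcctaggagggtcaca
Pf4: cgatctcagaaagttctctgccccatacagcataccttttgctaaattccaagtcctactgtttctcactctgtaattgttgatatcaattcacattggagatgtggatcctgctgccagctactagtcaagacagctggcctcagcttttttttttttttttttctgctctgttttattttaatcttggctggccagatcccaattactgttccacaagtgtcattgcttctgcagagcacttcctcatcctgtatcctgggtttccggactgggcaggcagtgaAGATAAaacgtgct
Ppbp: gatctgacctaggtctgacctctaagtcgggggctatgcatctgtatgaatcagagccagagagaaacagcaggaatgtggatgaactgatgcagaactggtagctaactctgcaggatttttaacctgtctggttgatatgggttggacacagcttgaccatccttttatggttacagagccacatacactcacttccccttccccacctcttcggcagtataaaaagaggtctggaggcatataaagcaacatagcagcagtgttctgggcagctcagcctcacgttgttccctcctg
The Gp1ba window held 2 of these words, the Gp6, Mmrn1 and Pf4 windows 1 each and the Ppbp window none. A window was found for 30 of the 36 genes, of which 9 held the GATA words, against 21% of the 27025 genes in the table. The ETS words AGGAAG or CGGAAG, on either strand, were in 17 of the 30 and in 49.8% of all genes, and the NF-E2 word TGAGTCA was in 2 of the 30 (F2rl2 and Ctla2a) and in 5.95% of all genes. The different motif searches do not exclude overlapping positions, and a match is a run of letters, not a bound site.

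The integrin chains and Cd9 showed a wide spread of ratios. Itga2b, the αIIb chain that is restricted largely to the megakaryocyte lineage, had 1420 normalized counts in Blood 21, 151 in Blood 22, 69.9 and 54.2 in Blood + MSC, 50.4, 14.4 and 5.15 in MI, against 4.06, 6.89 and 6.10 in MI + MSC. Its partner Itgb3 had 1187 and 46.8 in the Blood libraries, 26.5 and 22.2 in Blood + MSC and 13.6 to 32.1 in the heart. Itga2, a chain of the collagen-binding integrin, had 502 in Blood 21 and 20.1 in Blood 22. Itga6, a laminin-binding chain that other cells also make, had 3222 in Blood 21 and 137 in Blood 22, but its 219 to 685 in the cardiac libraries lay above Blood 22 and above the 96.7 and 164 of Blood + MSC. Cd9, a tetraspanin of many cell types, had 608 and 126 in Blood, against 137 and 111 with MSC.

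The receptors for soluble agonists differed from each other in Blood 21. P2ry12, the ADP receptor that sustains aggregation, had 2261 normalized counts in Blood 21, 164 in Blood 22, 177 and 103 in Blood + MSC, and 16.8 to 168 in the heart. P2ry1, the ADP receptor that triggers shape change, had 98.9 and 33.1 in Blood, against 8.93 and 9.42 with MSC. F2rl2, which encodes the thrombin co-receptor PAR3, had 466 in Blood 21 from 66 reads and 8.45 in Blood 22 from 13 reads. F2rl3, which encodes PAR4, had 2 reads in Blood 21, none in Blood 22 and 1 to 4 in every other library. Tbxa2r, the thromboxane receptor, had no read in Blood 21, which allows up to 21.2 normalized counts, and 0 to 22 reads elsewhere. PAR4 and the thromboxane receptor could therefore not be placed in the pattern at this depth.

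Of the eicosanoid enzymes, Alox12, the platelet 12-lipoxygenase, had 2423 normalized counts in Blood 21, 85.1 in Blood 22, 34.7 and 27.1 in Blood + MSC and 6.78 to 33.6 in the heart. Tbxas1, thromboxane synthase, which monocytes and macrophages also make, had 318 and 201 in Blood, 182 and 345 in Blood + MSC and 84.0 to 178 in the heart. The lipoxygenase gene thus had a ratio of 28.5 between the Blood libraries and the synthase gene a ratio of 1.58.

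The signalling genes included Plek, the main part of the sum outside Blood 21. Plek had 11919 in Blood 21, 3132 in Blood 22, 3264 and 2183 in Blood + MSC, 647, 1935 and 2168 in MI, against 3620, 4059 and 2265 in MI + MSC. Gng11, a G protein γ subunit found in platelets and endothelial cells, had 4713 in Blood 21, 63.0 in Blood 22, 47.0 and 32.0 in Blood + MSC, 126, 111 and 108 in MI, against 37.9, 34.4 and 56.9 in MI + MSC. Rgs18, a regulator of G protein signalling in platelets, had 1738 and 231 in Blood, against 121 and 87.7 with MSC. Nrgn, which encodes the calmodulin-binding protein neurogranin, had 2748 and 32.5 in Blood, a ratio of 84.6. The cation channel gene Trpc6 had 438 in Blood 21 and 9.10 in Blood 22. Pcp4l1 had 98.9 in Blood 21, from 14 reads, 3.90 in Blood 22, 0.525 and 1.18 in Blood + MSC, 50.4, 44.2 and 31.9 in MI, against 13.5, 22.96 and 47.5 in MI + MSC.

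The last genes join the cytoskeleton, secretion and transcription. Tubb1, the β1-tubulin of the platelet marginal band, had 3250 normalized counts in Blood 21, 96.8 in Blood 22, 42.8 and 35.7 in Blood + MSC and 7.21 to 26.9 in the heart. Sytl4, a Rab27 effector of granule release, had 184 and 6.50 in Blood. Nfe2, the p45 subunit of the transcription factor NF-E2, had 841 in Blood 21, 544 in Blood 22, 463 and 264 in Blood + MSC and 13.6 to 94.1 in the heart. It separated blood from heart in every library and had a ratio of 1.54 between the Blood libraries. Ctla2a, a protease inhibitor gene, had 3801 and 83.8 in Blood, and Gchfr, the feedback regulator of GTP cyclohydrolase, had 141 and 3.90, from 20 and 6 reads.

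The first comparison asked how Blood + MSC differed from Blood. In limma on log2(normalized count + 2), fitted to all 11549 genes, a gene was called at a Benjamini-Hochberg adjusted p under 0.05 and a log2 fold change of at least 0.5 in size, and fold changes on this scale understate those of low genes. None of the 33 genes was called, and 0% of all tested genes were. The median log2 fold change of the genes was -3.11, against 0.11 over all tested genes, 31 of the 33 were negative, and 25 had an unadjusted p under 0.05, all lower in Blood + MSC. The lowest adjusted p was 0.672. edgeR on the recovered reads also called 0 of the genes, with 28 at an unadjusted p under 0.05, whereas DESeq2 over all libraries called 22 lower, against 1.52% of all genes with an adjusted p. All values of Blood + MSC lay below both Blood libraries for 26 genes, against 15.4% of all tested genes, and above both for Selp, against 21%.

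This difference depended on 1 library. Without Blood 21 the median log2 fold change of the genes was -0.74, and limma, edgeR and DESeq2 called none of them (4 at an unadjusted p under 0.05 in limma), with the lone Blood 22 assumed to vary like the other groups. Without Blood 22 the median was -5.47 and limma called 28 genes lower, against 3.4% of all tested genes. Ppbp had a log2 fold change of -4.35 ± 1.31 (SE) with all libraries and -1.49 ± 0.66 without Blood 21. For Gp9 the values were -4.24 ± 1.45 and -1.10 ± 0.84. P2ry1, at -2.41 ± 0.53 with all libraries, remained at -1.65 ± 0.51 without Blood 21, with an adjusted p of 1 in the latter fit.

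**Figure D3:**
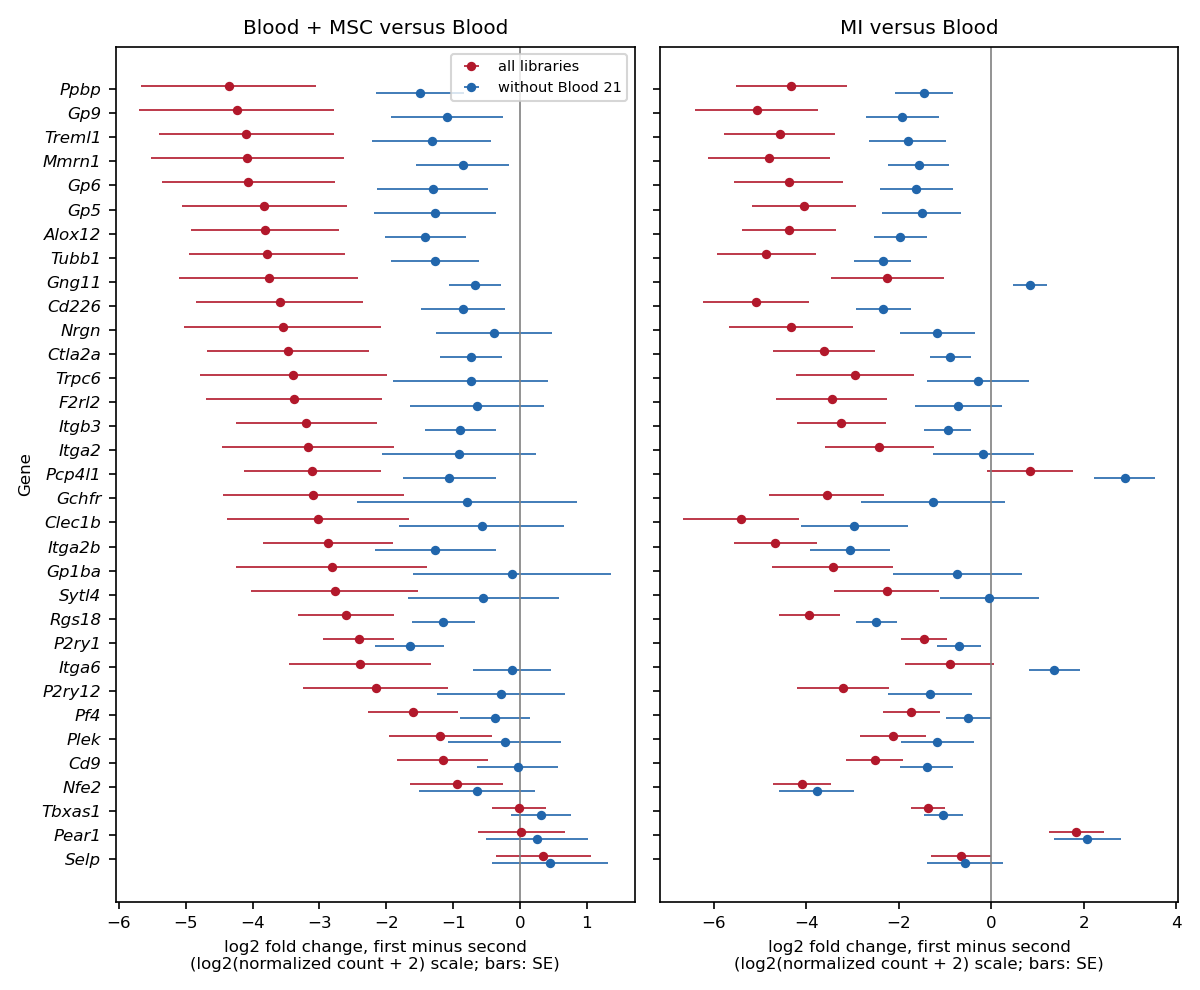
log2 fold change of the 33 tested genes in limma, first group minus second, with bars of 1 SE, for Blood + MSC versus Blood on the left and MI versus Blood on the right. Red points use all libraries and blue points leave out Blood 21. On the left the median moves from -3.11 to -0.74 and on the right from -3.46 to -1.17.

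Other features of Blood 21 moved with these genes, and their part in the result was not tested. The 11 neutrophil markers summed to 44194 in Blood 21 and 51265 in Blood 22. The 8 endothelial markers summed to 721 in Blood 21 and 67.6 in Blood 22, and in Blood 21 the sum held 586 from Pecam1, 127 from Esam and 7.07 from Cdh5, while Kdr, Tie1, Emcn, Cldn5 and Egfl7 had no read. Erythroid markers summed to 488 in Blood 21 and 9559 in Blood 22. The tested genes outside the fixed lists with the greatest excess of Blood 21 over Blood 22 were Gm6634, Lrrn3, Cavin2, Gm30411, Tsc22d1, Fhl1, Mfap3l, Lgalsl, Sh3bgrl2 and Slamf1, from 5.64 to 7.34 on the log2 scale. The 10 genes with the greatest deficit, Rps21, Rpl38, Rpl28, Cstdc5, Rplp2, Rps28, Rpl36a, Sec61g, Rpl37a and Atp5mj, had 0 or 1 read in Blood 21 and 191 to 957 in Blood 22. Most of them encode ribosomal proteins, and they were also low in the cardiac libraries, at 0 to 43.7 normalized counts.

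The 2nd comparison, MI + MSC versus MI, asked the same of the infarcted heart. limma called none of the 33 genes and 0% of all tested genes. The median log2 fold change was -0.25, against -0.01 over all tested genes, and Pf4 alone had an unadjusted p under 0.05. edgeR and DESeq2 over all libraries called none either, with 1 and 2 genes at an unadjusted p under 0.05. Pf4 had 252, 455 and 516 normalized counts in MI, against 1233, 682 and 988 in MI + MSC, groups that did not overlap. Its log2 fold change was 1.27 ± 0.55 (SE) with an adjusted p of 0.618. DESeq2 on the cardiac libraries alone called it higher, with an adjusted p of 0.0259.

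Besides Pf4, the groups did not overlap for Plek, which was higher in MI + MSC, so 2 genes were higher throughout, against 7.05% of all tested genes. They were lower throughout for Gp6, P2ry1, Gng11 and Pear1, against 9.6%. In MI 13 the values of Gp6 and P2ry1, 16.8 and 25.2, were at or under the 25.2 that 3 reads are worth there. Gp6 had at most 5 reads in an MI + MSC library. Plek had a log2 fold change of 1.20 ± 0.63 with an adjusted p of 0.647. Gng11, at 126, 111 and 108 in MI, against 37.9, 34.4 and 56.9 in MI + MSC, had -1.40 ± 1.09 with an adjusted p of 0.703. Its SE was 0.26 without Blood 21, with an adjusted p of 0.114. DESeq2 on the cardiac libraries alone called Gng11 lower, with an adjusted p of 0.0374. Markers of other cells moved between the same libraries: endothelial markers summed to 1719 to 1922 in MI and 414 to 788 in MI + MSC, with all 8 detected in both groups. Cardiomyocyte markers summed to 6991 to 20960 in MI and 2684 to 10899 in MI + MSC. Fibroblast and mural cell markers summed to 1353 to 1521 in MI and 623 to 1145 in MI + MSC, without overlap, and monocyte and macrophage markers to 2639 to 7754 in MI and 5545 to 11229 in MI + MSC. The part of these cells in the values of Gng11, Pear1, Pf4 and Plek was not tested.

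**Figure D4:**
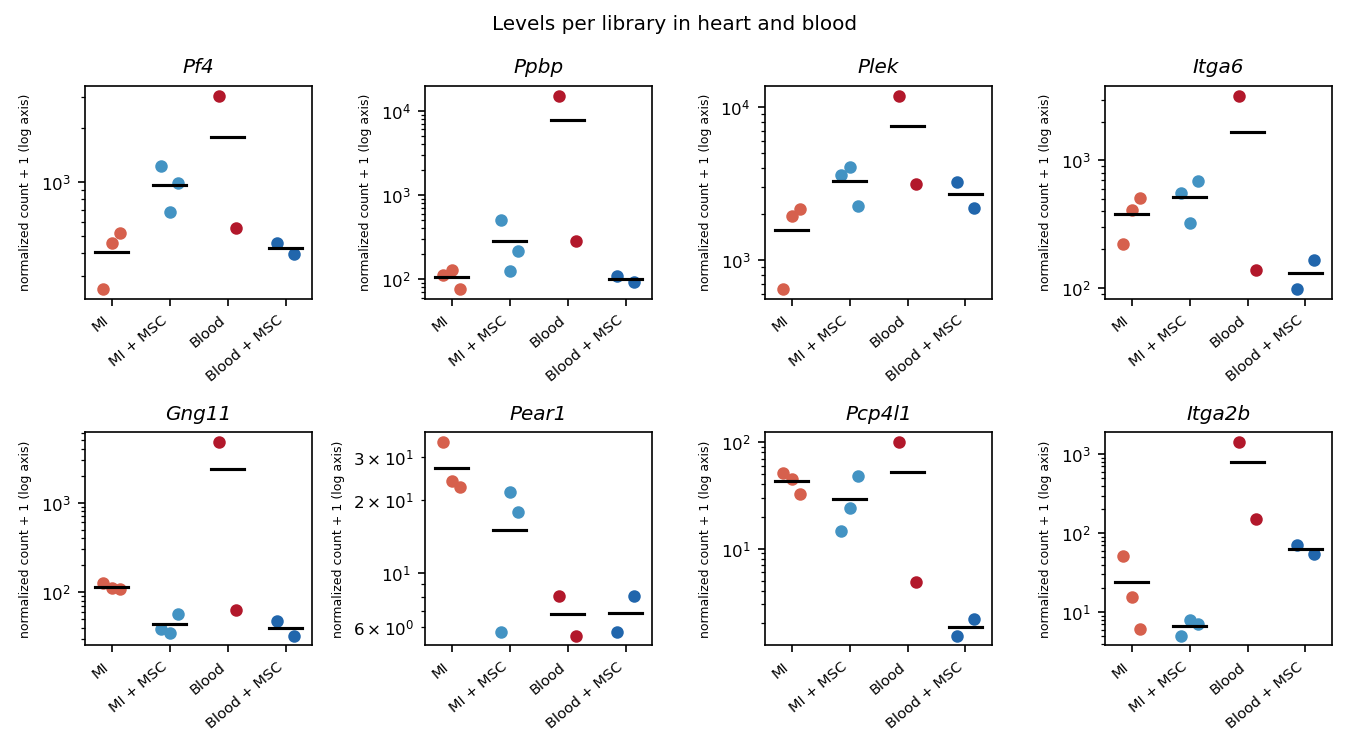
Normalized count plus 1, on a log axis, of 8 genes in each library, with libraries as points and the group mean as a line. Pf4 and Plek were higher and Gng11 lower in each MI + MSC library than in each MI library, while Pear1, Pcp4l1 and Itga6 had cardiac levels at or above those of Blood 22 and Itga2b did not.

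The 3rd comparison set MI against Blood, both without stem cells. limma called 24 of the 33 genes lower in MI, against 13.5% of all tested genes, and Pear1 higher, against 21.2%. The median log2 fold change was -3.46. Neutrophil markers summed to 44194 and 51265 in Blood and to 2496 to 7916 in MI. Erythroid markers summed to 488 and 9559 in Blood and to 118 to 311 in MI. The part of these cells in the values of Nfe2 and the other genes was not tested. Nfe2 had the lowest adjusted p, at -4.09 ± 0.63 (SE) with an adjusted p of 0.00096, followed by Rgs18 at -3.94 ± 0.66 and Itga2b at -4.67 ± 0.89. The lowest value was that of Clec1b at -5.41 ± 1.25, with an adjusted p of 0.0078, from 0, 12 and 6 reads in MI. Gp1ba, with every MI library at or under the floor, was not called. Taking 3 reads in each MI library as the floor, it was at least 9.79-fold lower than the mean of Blood. That mean joined 191 in Blood 21 and 2.60 in Blood 22, and Blood 22 lay under the MI floor of 9.88.

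These calls also rested on Blood 21. Without it the median was -1.17, and 6 genes were called lower, against 14% of all tested genes, and 1 higher, against 15.7%. The 6 were Nfe2, Itga2b, Rgs18, Tubb1, Alox12 and Cd226, whose cardiac levels lay below Blood 22 in each MI library. The higher gene was Pcp4l1, at 2.88 ± 0.66 with an adjusted p of 0.0107, while Pear1 had 2.08 ± 0.72 with an adjusted p of 0.0542. Itga6 changed sign, from -0.90 ± 0.97 with all libraries to 1.36 ± 0.55 without Blood 21, and DESeq2 without Blood 21 called it higher at 1.42.

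The 4th comparison, MI + MSC versus Blood + MSC, held no Blood library in its difference, although the Blood libraries entered its estimate of spread. Nfe2 was called lower at -3.09 ± 0.63 (SE) with an adjusted p of 0.00887, and Itga2b at -3.07 ± 0.89 with an adjusted p of 0.0413, 2 genes against 5.85% of all tested genes. Pcp4l1 was called higher at 3.24 ± 0.94 with an adjusted p of 0.0409, against 8.23%. The median over the 33 genes was -0.62, against 0.09 over all tested genes. Neutrophil markers summed to 16403 and 23270 in Blood + MSC and to 2801 to 13438 in MI + MSC. Cardiomyocyte markers summed to 14.4 and 16.2 in Blood + MSC and to 2684 to 10899 in MI + MSC. Endothelial markers had 36.8 and 46.3 against 414 to 788, and fibroblast and mural cell markers 221 and 280 against 623 to 1145. Monocyte and macrophage markers had 5733 and 7244 against 5545 to 11229. The part of these cells in the values of Pcp4l1, Itga6 and the other genes was not tested. With the spread estimated without Blood 21 the fold changes were the same, and 8 genes were called. Rgs18, Tubb1, Alox12 and Cd226 joined the lower genes, 6 against 10.5% of all tested genes, and Itga6 joined Pcp4l1 among the higher, 2 against 12.9%. Without Blood 22 the calls were 6 lower, against 10.4%, and 2 higher, against 13%. Without Blood + MSC 23 none was called, and 1 was called lower without each of MI 19, MI + MSC 15, MI + MSC 17, MI + MSC 18 and Blood + MSC 24.

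The interaction asked whether the effect of MSC differed between heart and blood. limma called none of the 33 genes and 0% of all tested genes, with 6 at an unadjusted p under 0.05. The median difference of effects, heart minus blood, was 2.87 on the log2 scale with all libraries and 0.55 without Blood 21, where again none was called. Without Blood 22 the median was 5.29 and limma called 25 genes, all with a positive difference, against 2.16% of all tested genes. DESeq2 over all libraries called 3 genes, Ppbp, Pf4 and Rgs18, all with a positive difference, against 0.7% of the 2144 genes with an adjusted p, which 16 of the 33 genes lacked. edgeR called none, with 26 at an unadjusted p under 0.05. Ppbp had the largest difference, 5.57 ± 1.69 (SE) with an adjusted p of 0.630, and 2.71 ± 0.79 with an adjusted p of 0.827 without Blood 21.

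Other platelet genes outside the list, 47 with a row and 44 tested, were grouped by role. In Blood + MSC versus Blood limma called none of the 44, with 11 lower at an unadjusted p under 0.05. Among the surface and cytoskeletal genes, all 11 tested had a negative value, and Myl9, a myosin light chain, had 3081 normalized counts in Blood 21, then 53.9 in Blood 22, and the Blood + MSC libraries had 27.3 and 24.2. The inhibitory receptor gene Mpig6b had 431 and 10.4 in Blood, and Ly6g6f 141 and 3.90. Among granule and secretion genes, Rab27b had 919 and 15.6, Vwf 911 and 57.2 and Serpine2 261 and 1.95. Of the megakaryocyte transcription factors, Tal1 had 155 and 4.55 whereas Meis1 had 0 and 10.4. The signalling genes below the collagen receptors and integrins, which neutrophils share, were closer: Rasgrp2 had 332 and 355, Fcer1g 1272 and 1216, and Fermt3 869 and 609. Among these named genes, the structural and granule genes were high in Blood 21, the 3 signalling genes differed less, and Tal1 and Meis1 went opposite ways. They were named for the largest fold change in a comparison that includes Blood 21. Their values there are therefore partly set by that choice and do not describe the whole lists.

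In MI versus Blood, limma called 16 of the 44 lower and 4 higher, against 13.5% and 21.2% of all tested genes. In MI + MSC versus Blood + MSC it called 9 lower and 3 higher, against 5.85% and 8.23%. As shares of the 44, the lower calls were 36.4% and 20.5% and the higher calls 9.09% and 6.82%. The last share was close to that over all tested genes. The signalling list gave 8 and 6 of the lower calls. These were led by Rasgrp2 (log2 fold change -2.66), Fermt3 (-1.80) and Tln1 (-1.77) in MI versus Blood and by Rasgrp2 (-2.42), Tln1 (-2.03) and Btk (-1.88) in MI + MSC versus Blood + MSC. They encode an activator of Rap1, the integrin activators kindlin-3 and talin, and a tyrosine kinase. Of the granule list, the growth factor gene Pdgfb was higher in the heart in both comparisons, at 4.79 and 2.76. In the same list the factor V gene F5 (-3.70) and the syntaxin gene Stx11 (-3.22) were lower in MI than in Blood, and the granule genes Nbeal2 (-2.22) and Unc13d (-1.93) lower in MI + MSC than in Blood + MSC. Of the surface and cytoskeletal list, Ly6g6f, Myl9 and Bin2 were lower in MI than in Blood, at -3.75, -3.51 and -2.66. In MI + MSC versus Blood + MSC, Tpm1 was higher at 2.42 and Bin2 lower at -1.40. The transcription factor genes Meis1 and Runx1 were higher in MI than in Blood, at 2.43 and 0.93. In MI + MSC versus MI limma called none of the 44, with 6 at an unadjusted p under 0.05, and DESeq2 over all libraries called Pdgfb lower, at -1.59 with an adjusted p of 0.0288, against 0.564% of all genes with an adjusted p.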

How the data were processed

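Ly6G+ cells of infarcted mouse hearts and blood were profiled by stranded total RNA-seq after ribosomal RNA depletion. Per the labels and the study's methods, the authors used Trimmomatic, Picard, STAR on GRCm39, featureCounts and DESeq2, and left out mitochondrial reads. Picard removed PCR duplicates, which can lower the counts of abundant transcripts. The signal that the authors deposited was read counts divided by DESeq2 size factors. The file named as raw held the same values (281850 of 281850), and dividing by the value of 1 read gave whole reads for 100% of values (tolerance 0.01). The authors' own fold changes were not used.

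The 36 genes, their roles and the other lists were chosen with earlier results of these data known. All 36 genes are named. Of the other platelet genes, at most the 3 with the largest log2 fold change per list and comparison were named among those called, and in blood the 3 largest per list. A gene that this rule would name is not reported here, although the counts over the lists include it. Outside the lists, the 10 tested genes with the largest difference between Blood 21 and Blood 22 in each direction were named, if the higher library had at least 10 reads. limma 3.58.1 with an intensity trend was fitted to log2(normalized count + 2) over all 10 libraries in R 4.3.3, with Benjamini-Hochberg adjustment over all 11549 genes with a mean of at least 10. The interaction was called on the adjusted p alone. edgeR 4.0.16 (quasi-likelihood) and DESeq2 1.42.0 were run on the recovered reads as alternatives. Other alternatives were pseudocounts of 1 and 5, no filter, a mean of at least 20, TMM and library-size scaling, limma-voom with quality weights and each library left out. edgeR and DESeq2 without Blood 21, and limma without Blood 21 and MI 13, were added after the data were seen. The limma script was tested on simulated counts. Depth ran from 148594 to 8602711 reads. Coordinates of genes are from GENCODE vM39 (GRCm39), in which 27906 of 28185 gene identifiers were found. Reads of Clec1b, Tbxas1 and Pear1 may be shared with genes that overlap them on the same strand.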

Additional observations from a re-analysis of the deposited data

Results flagged for a closer look

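Pf4 levels differed between libraries with and without MSC in opposite directions in heart and blood. Each MI + MSC library lay above each MI library and each Blood + MSC library lay below each Blood library. In limma neither difference was called, with an adjusted p of 0.618 in heart and 0.672 in blood. The part of other cells in these values was not tested. The difference of the effects, heart minus blood, was 2.87 ± 0.86 on the log2 scale (SE, limma, 3 and 2 libraries a group), with an adjusted p of 0.630. Without Blood 21 it was 1.64 ± 0.62 with an adjusted p of 0.827. DESeq2 over all libraries called it, at 3.37 with an adjusted p of 0.0199, and DESeq2 without Blood 21 did not, at 1.59 with an adjusted p of 0.257.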

How the results depend on the processing

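No paired analysis was possible because the labels did not state which libraries shared a mouse. The number of the 33 genes called was recomputed under 23 other settings, 3 of them added after the data were seen. In Blood + MSC versus Blood, DESeq2 called 22 over all libraries and 5 on the 2 groups alone, and leaving out 1 library gave 0 to 28. In MI + MSC versus MI, 2 were called by DESeq2 on 2 groups, 2 by DESeq2 without Blood 21 and 1 by edgeR without Blood 21, namely Pf4 and Gng11 in the former and Gng11 in the latter. In MI versus Blood, edgeR without Blood 21 called 14, DESeq2 without it 12 and limma without Blood 21 and MI 13 called 12, and leaving out 1 library gave 7 to 30. In MI + MSC versus Blood + MSC, DESeq2 on 2 groups called 17, limma-voom 5, edgeR without Blood 21 called 18, DESeq2 without it 16 and limma without Blood 21 and MI 13 called 15, and leaving out 1 library gave 0 to 8. For the interaction, DESeq2 called 3 and leaving out 1 library gave 0 to 25. Itga6 in MI versus Blood reversed to 1.42 (DESeq2 without Blood 21) and 1.71 (without Blood 21 and MI 13). In all of these the cause was not tested. Where no call was made under either setting, the sign differed from the one reported in 13, 49, 10, 21 and 15 single-gene values of the 5 tests in the order above. TMM scaling moved the median of all tested genes by 0.60 in Blood + MSC versus Blood, 0.26 in MI + MSC versus MI, -0.21 in MI versus Blood, -0.59 in MI + MSC versus Blood + MSC and -0.36 in the interaction, and library-size scaling by 0.26, -0.12, 0.49, 0.09 and -0.40. With 148594 reads in MI 13 and 268860 in Blood 21, 3 reads were worth 25.2 and 21.2 normalized counts, so genes below these levels could not be measured there.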
